A study of Mus musculus with 51 samples.

Results

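Cytosolic ribosomes are built from ribosomal RNA and a fixed set of proteins, each encoded by its own nuclear gene. The genes examined here are those whose symbol is Rpl or Rps followed by a number with its letter, by p0, p1 or p2, or by a, with a mean deposited value of at least 10 over all libraries. The symbol pattern took 82 genes, and 80 had the mean required, out of 16099 genes in the expression table and 14426 that had such a mean. They comprise 48 genes of the large subunit and 32 of the small subunit. Rpl3l and Rpl39l were left out, with means of 8.55 and 1.25, and the lowest gene taken was Rpl26, with a mean of 17.8. The choice used symbols and the mean level only, not any change in time.

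The series holds poly-A RNA sequencing of C57BL/6 fetal mouse kidney, and its title places it in a study of the circadian clock and developmental time. All groups are wild type by their labels, and differ only in the time of collection, called CT and counted in hours, with no transgene or treatment named. Collections ran every 4 h through CT0, CT4, CT8, CT12, CT16, CT20, CT24, CT28, CT32, CT36, CT40, CT44 and CT48, with 4 libraries at 12 time points and 3 at CT20, or 51 in all. The labels give embryonic day 18 at CT0, 19 at CT24 and 20 at CT48. The labels call the libraries of a time point biological replicates. Dams and litters are not named, so the p-values below measure the spread between these libraries, which may share a litter.

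Ribosomal protein genes are among the most strongly transcribed genes of growing cells, and their products are needed in equal numbers in each ribosome. In vertebrates their mRNAs start with a C followed by a run of pyrimidines, the 5′ TOP motif, through which the kinase complex mTORC1 and the binding protein Larp1 set how much of each mRNA is translated. In the developing kidney, dividing nephron progenitors give rise to tubule cells that later stop dividing.

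The deposited table carries normalised whole numbers with library totals between 34226024 and 35711911, so the sequencing depth behind each value is unknown. Of 76 members with a mean of 1000 or more, the mean over CT28 to CT48 differed from the mean over CT0 to CT24 by a median of 0.018 on the log2 scale, with a range of -0.0046 to 0.045. The authors' normalisation is not described, so this match cannot be read as an unchanged level. Levels were therefore compared only within CT0 to CT24 and within CT28 to CT48, and none across the boundary. The median gene had a residual SD on the log2 scale of 0.14 in the later libraries and of 0.07 in the earlier ones. At CT36, libraries 2 and 3 stood apart from libraries 1 and 4 in the members' level, with both below both others in 71 of 80 members. The identifier number of CT36 library 3 lies outside the run of the others, as does that of CT12 library 4. Results that rest on these libraries are given with and without them. All 15 proximal tubule markers and all 8 nephron progenitor markers, Six2 among them, had values above 0 in every library.

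RefSeq windows of 300 bases around the annotated start (GRCm38.p6, 250 bases before it and 50 from it on) were at hand for 60 of the 80 members, among windows for 27025 genes. The stretch around the start is shown for 6 members because it carries the 5′ end of the mRNA. Each line gives 12 bases before the start and 18 from the start on, so that the thirteenth letter is the annotated start, and capitals mark runs of 8 or more pyrimidines.
Rps6, chr4:86857350-86857379, minus strand: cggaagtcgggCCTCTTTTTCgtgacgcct
Rpl15, chr14:18270969-18270998, minus strand: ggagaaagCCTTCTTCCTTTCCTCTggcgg
Rps12, chr10:23787192-23787221, minus strand: cgtcatgcggccaccgccggCCTTTTCCCC
Rpl22l1, chr3:28805496-28805525, plus strand: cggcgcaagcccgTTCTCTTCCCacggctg
Rps16, chr7:28350677-28350706, plus strand: gcttctgtcgtgacgtagcactcaatgcgc
Rpl7l1, chr17:46782639-46782668, minus strand: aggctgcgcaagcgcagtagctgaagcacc
A pyrimidine run of at least 8 letters between 20 bases before and 30 after the start was present in 34 of the 60 members, or 56.7%, against 21.5% of all genes of the RefSeq table. A C followed by at least 4 pyrimidines stood exactly at the annotated start in 13 of 60 members, or 21.7%, against 3.01% of all genes. The stretches shown for Rps16 and Rpl7l1 hold no such run.

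Further upstream, 3 members illustrate promoter letters found in some of the members, none of them marked in all 3 stretches. The 120 bases before the start are shown, with capitals on matches to CCGGAAG (the core bound by ETS factors), TCTCGCGA (part of a palindrome known from promoters of housekeeping genes) and GGGCGG (the GC box).
Rps6, chr4:86857368-86857487, minus strand: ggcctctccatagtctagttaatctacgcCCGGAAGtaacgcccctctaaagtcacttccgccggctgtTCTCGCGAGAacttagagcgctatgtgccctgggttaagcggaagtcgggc
Rps18, chr17:33955666-33955785, minus strand: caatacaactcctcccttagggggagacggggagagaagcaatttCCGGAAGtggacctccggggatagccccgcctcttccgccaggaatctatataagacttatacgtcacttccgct
Rpl12, chr2:32961592-32961711, plus strand: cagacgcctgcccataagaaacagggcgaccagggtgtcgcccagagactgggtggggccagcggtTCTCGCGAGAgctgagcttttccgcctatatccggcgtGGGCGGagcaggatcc
On both strands of the 300-base windows, CCGGAAG was found in 41.7% of the members and 9.93% of all genes, GGGCGG in 63.3% and 38.2%, and TCTCGCGA in 18.3% and 1.13%, in the order members and all genes. AAGATGGC, the core of the YY1 motif, was found in 6 of the 60 members and in 3.19% of all genes, while TATAAA was found in 11.7% and 15.7%. These are matches of letters, not sites known to be bound.

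Levels between genes are comparable only per kilobase of transcript. On that scale Rpl41, which encodes the smallest ribosomal protein, led with a value of 81633 per kb, followed by Rplp1 with 67198, Rpl32 with 57776, Rplp0 with 57723 and Rps18 with 57578. The median was 28731 per kb for the large subunit and 37890 per kb for the small subunit. Rplp0, Rplp1 and Rplp2 form the stalk of the large subunit that recruits elongation factors. At the other end stood Rpl7l1 with 3787 per kb, Rps27 with 652, Rpl34 with 414, Rpl30 with 168 and Rpl26 with 33.8. Products of Rps27, Rpl34, Rpl30 and Rpl26 are standard parts of the ribosome, yet these 4 genes had mean deposited values of 225, 199, 95.6 and 17.8, against at least 2907 for every other member. Near-identical pseudogene copies (at least 97% identity over at least 80% of the coding bases) exist for 68 of the 80 members in the GENCODE M21 annotation, from 31 copies of Rpl21 and 17 of Rpl7a down to 1. How reads shared with such copies were counted is stated in none of the labels or headers, so absolute levels of single members are uncertain. All 4 of the low genes have such copies, as do 64 of the 76 members with means of at least 1000.

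Between CT28 and CT48 both subunits lost part of their share of the transcriptome. Large subunit genes made up 3.86 ± 0.259% of the deposited total at CT28, 3.82 ± 0.200% at CT32, 2.83 ± 0.315% at CT36, 3.40 ± 0.279% at CT40, 2.93 ± 0.177% at CT44 and 2.59 ± 0.146% at CT48 (SD, n = 4 each). Small subunit genes followed with 2.92 ± 0.216%, 2.93 ± 0.178%, 2.10 ± 0.269%, 2.56 ± 0.232%, 2.18 ± 0.151% and 1.90 ± 0.130% at the same times (SD, n = 4 each). The lowest and highest share of both subunits together were 4.26% and 4.88% at CT48, against 6.33% and 7.30% at CT28, so the groups did not overlap. Before CT28 the combined share lay between 5.12% and 6.07% in all 27 libraries, with a median of 5.69%. These earlier shares were not compared with the later ones.

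**Figure D1:**
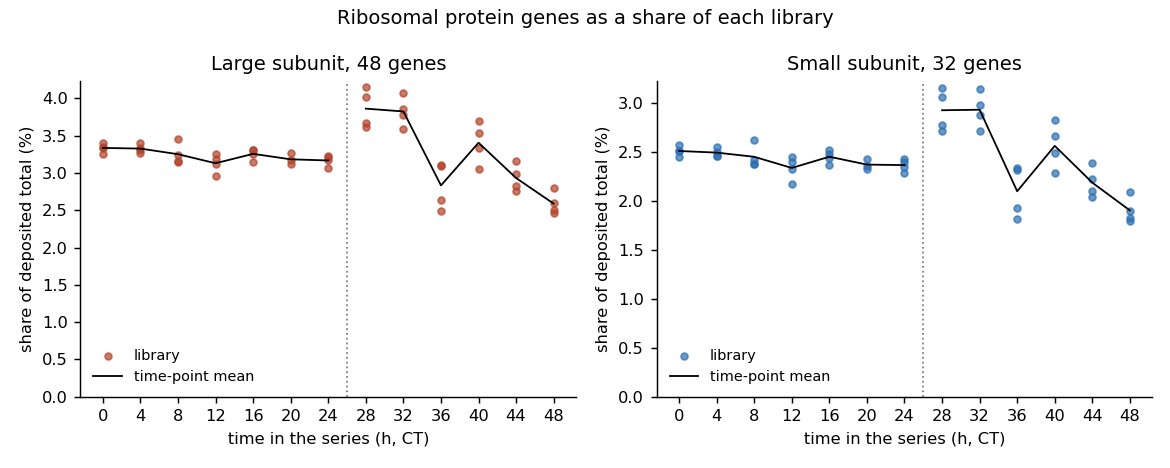
Share of each library's deposited total taken by the 48 large and 32 small subunit genes, in percent, against time in the series in hours. Points are libraries and lines join time-point means within CT0 to CT24 and CT28 to CT48, which the dotted line separates. The large subunit share averages 2.59% at CT48 and 3.86% at CT28, and the CT36 libraries form an upper and a lower pair.

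Differences were tested with limma on log2(value + 1), and a gene was called at an adjusted p under 0.05 over all 14426 genes. The F test across time points called 45 large and 31 small subunit members among CT28 to CT48, where 64.7% of all genes were called. The 4 that did not pass were Rpl26, Rpl30, Rpl34 and Rps27, those with the lowest values. Among CT0 to CT24 the same test called 6 large and 8 small subunit members, where 43.5% of all genes were called, so the members' share lay below that of all genes. The range of time-point means was 0.63 on the log2 scale for the median large and 0.73 for the median small subunit member in the later period. It was 0.11 for both in the earlier period. Across the 24 later libraries the median member correlated with the mean of its own subunit at r = 0.98 for either subunit, a description that includes the differences between time points. Over the same libraries, each subunit's median also correlated at r = 0.97 with the median of other genes with transcripts under 1000 bases. With other genes above 4000 bases the correlation was -0.94. The lowest mean fell at CT48 for 44 of 48 large and 30 of 32 small subunit members.

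**Figure D2:**
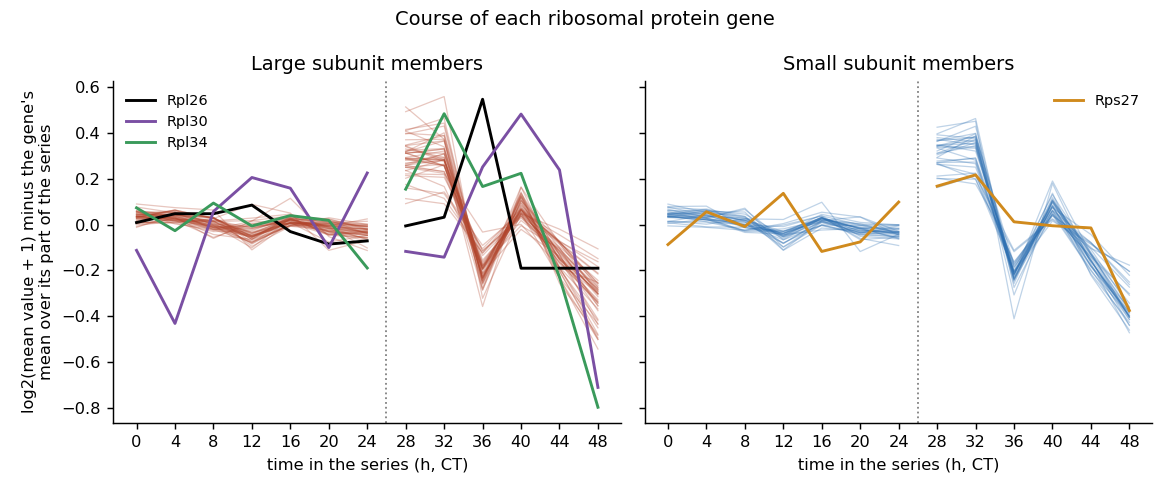
Course of every member, as log2 of the time-point mean plus 1, minus the gene's mean over the same period, against time in hours. The thin lines are members with means of at least 1000, and the 4 thick coloured lines are Rpl26, Rpl30, Rpl34 and Rps27. After CT24, Rpl26 and Rpl30 have their highest means at CT36 and CT40. Rpl34 and Rps27 have their highest at CT32 and their lowest at CT48. The thin lines lie close together at all times, with the widest range after CT24.

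The largest drop between neighbouring times was at CT36 against CT32. There, 45 of 48 large subunit genes fell, with a median log2 difference over all 48 of -0.48, or a fold of 0.716, and 31 of 32 small subunit genes fell, with a median over all 32 of -0.56, or a fold of 0.678. None rose. Over all genes tested, 19.1% fell and 15.7% rose. For the same 45 and 31 genes, all 4 CT36 values lay below all 4 CT32 values, which was so for 16.9% of all genes tested. The counts were 45 and 31 again with CT28 in place of CT32. In a bulk sample, less RNA per cell and fewer cells of a type rich in it cannot be told apart.

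Stalk and scaffold proteins show the size of the drop in the most abundant members. Rplp0, the stalk base, lies on chromosome 5 at 115559467 to 115563727 (GRCm38). Its values were 77176, 64068, 68044 and 74049 in CT36 libraries, against 93399, 90156, 102331 and 92364 in CT32 libraries. Every CT36 library was below every CT32 library, and the log2 difference was -0.42 ± 0.06 (SE), with an adjusted p of 6.43e-06 by limma. Rpsa, a small subunit protein also known as the laminin receptor, had 53904, 47453, 48730 and 53063 in CT36 libraries, against 71747, 67729, 76068 and 71305 in CT32 libraries. The groups were again apart, by -0.50 ± 0.06 (SE; adjusted p 8.43e-07, limma). Rplp1 and Rplp2, the acidic stalk proteins, fell by 0.51 and 0.48 on the log2 scale. Rps6, the small subunit protein phosphorylated by the S6 kinases, had 21817, 17724, 19869 and 22362 in CT36 libraries, against 27547, 27197, 31354 and 27042 in CT32 libraries. That is a log2 difference of -0.47 ± 0.08 (SE; adjusted p 7.16e-05, limma) with no overlap between the groups.

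The members differed in how far they fell. Rps12, on chromosome 10 at 23785183 to 23787275, where exons overlap the small nucleolar RNA genes Snora33 and Snord100, had values of 14805, 7644, 6893 and 14248 in CT36 libraries, against 20059, 17203, 23458 and 18492 in CT32 libraries. All CT36 libraries were below CT32, but libraries 2 and 3 were far below libraries 1 and 4. The log2 difference was -0.94 ± 0.21 (SE; adjusted p 0.00209, limma), and without CT36 libraries 2 and 3 it was -0.44 with an adjusted p of 0.0703. Rpl12, at the base of the stalk, showed the same pairs, with 12719, 7510, 6963 and 12516 in CT36 libraries, against 15012, 14690, 17753 and 14862 in CT32 libraries. Its difference was -0.70 ± 0.15 (SE; adjusted p 0.0017, limma), and -0.30 without those 2 libraries. Rpl22l1, the paralog of Rpl22, on chromosome 3 at 28805436 to 28807424, fell the most among large subunit members. It had 3837, 2783, 3052 and 3966 in CT36 libraries, against 6199, 5566, 7061 and 6275 in CT32 libraries, a log2 difference of -0.89 ± 0.12 (SE; adjusted p 1.55e-05, limma). Both libraries 1 and 4 were also far below CT32. Rps16, whose product contacts the P-site tRNA, had 16359, 12921, 13497 and 15703 in CT36 libraries, against 23426, 21648, 26086 and 22744 in CT32 libraries. It fell by 0.69 on the log2 scale with no overlap between the groups, and Rpl9 and Rps21 fell by 0.74 each.

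At the shallow end, Rpl29 had 14407, 14683, 14170 and 14297 in CT36 libraries, against 16846, 16919, 16379 and 16656 in CT32 libraries. Libraries of each group lay close together, with a log2 difference of -0.21 ± 0.04 (SE; adjusted p 0.000406, limma), and libraries 2 and 3 did not stand apart. Scaling to other genes of like transcript length, explained further on, turned this difference to 0.077 (adjusted p 0.391). Rpl23, which lies at the subunit interface, had 30650, 27290, 30019 and 31816 in CT36 libraries, against 35583, 35255, 36568 and 33395 in CT32 libraries. Its difference of -0.23 ± 0.06 (SE; adjusted p 0.00221, limma) was -0.17 with an adjusted p of 0.0756 without CT36 libraries 2 and 3, and 0.044 under quantile scaling. Rps2, near the mRNA entry channel, had 43487, 40323, 40854 and 41136 in CT36 libraries, against 47609, 52632, 51741 and 51510 in CT32 libraries. It fell by 0.30, Rps4x by 0.33 and Rps26 by 0.36 on the log2 scale, the smallest drops among small subunit members that passed.

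Paralogs and RP-like genes in the pattern moved in the same direction. Rps27l, the paralog of Rps27 and a p53 target, had 2838, 2044, 2165 and 2687 in CT36 libraries, against 3831, 3134, 4165 and 3832 in CT32 libraries, a log2 difference of -0.63. Rpl7l1, a paralog of Rpl7 that acts in assembly of the large subunit, had 4877, 4603, 4825 and 4951 in CT36 libraries, against 5889, 5290, 5884 and 5937 in CT32 libraries, a log2 difference of -0.26 ± 0.06 (SE; adjusted p 0.000703, limma). Its CT36 libraries were close to each other. Rpl5 and Rpl11, which bind Mdm2 as part of the 5S RNP when assembly fails, fell by 0.68 and 0.46 on the log2 scale.

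The 4 low genes did not pass the test at CT36 against CT32, with log2 differences of 0.40 for Rpl26, 0.44 for Rpl30, -0.14 for Rpl34 and -0.28 for Rps27. Rpl26 had 16, 35, 39 and 16 in CT36 libraries, against 20, 17, 19 and 17 in CT32 libraries. CT36 libraries 2 and 3, the lower pair in most members, were the highest in Rpl26. Rpl30 averaged 110 ± 20.8 in CT36 libraries and 83.5 ± 26.8 in CT32 libraries, Rpl34 219 ± 64.5 and 274 ± 177, and Rps27 232 ± 113.96 and 267 ± 95.8 at the same times (SD, n = 4 each). The groups overlapped for each, and none passed the test, with adjusted p-values between 0.406 and 0.787 (limma).

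**Figure D3:**
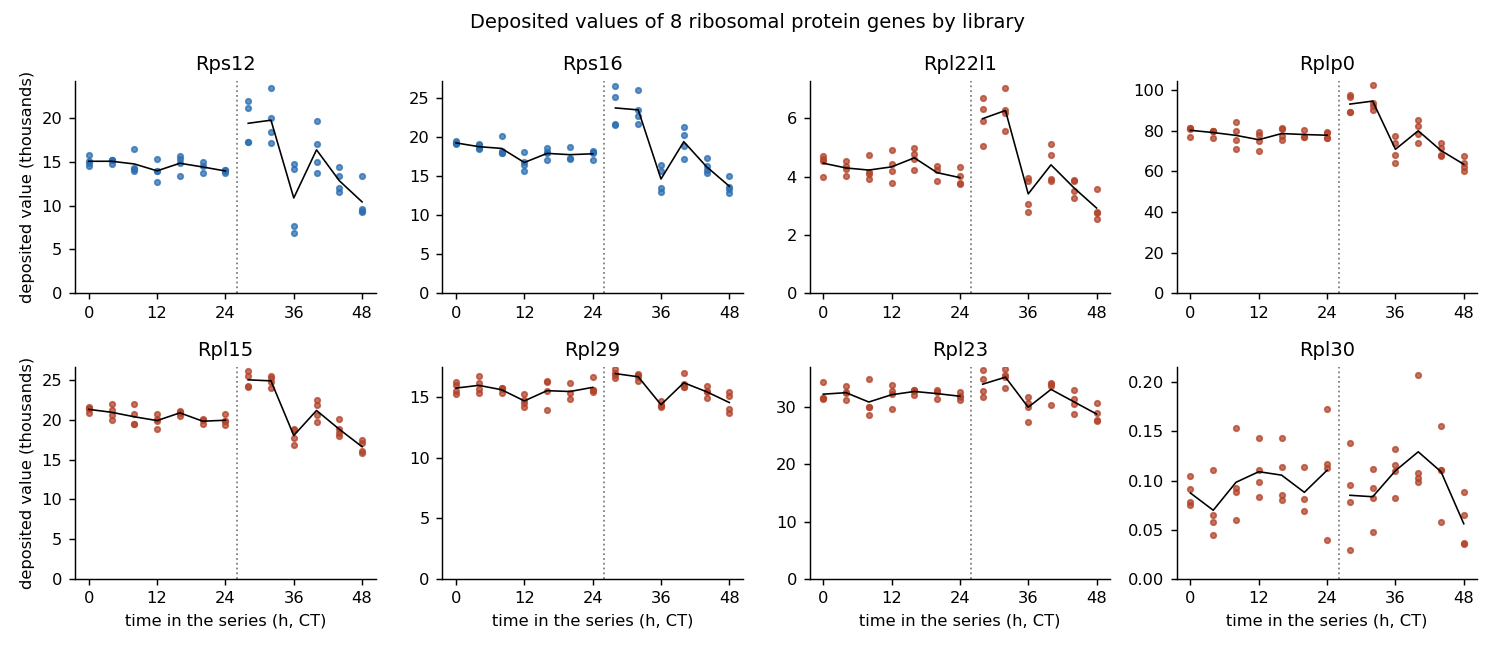
Deposited values, divided by 1000, for 8 members in each of the 51 libraries, against time in hours, with each axis starting at 0. Points are libraries, lines are time-point means, and blue marks small and red marks large subunit genes. Rps12 at CT36 shows libraries at 6893 and 7644 apart from 14248 and 14805, Rpl29 varies little, and no value of Rpl30 exceeds 207.

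The CT36 drop did not depend on 1 library, but its size depended on the lower pair. Leaving out each CT36 or CT32 library in turn left 45 large and 31 small subunit members lower each time. Without both CT36 libraries 2 and 3, 43 large and 26 small subunit members were lower, with medians of -0.35 and -0.39. Large subunit shares in the single CT36 libraries were 3.11%, 2.496%, 2.63% and 3.09%, against 3.85%, 3.59%, 4.07% and 3.77% in CT32 libraries. The ratio of the large to the small subunit sum lay between 1.33 and 1.38 at CT36, against 1.30 to 1.32 at CT32. Both subunits thus fell together, the small one slightly further.

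From CT36 the members' values were higher at CT40 and low again at CT48. At CT40 against CT36, 35 large and 24 small subunit members rose and none fell, where 8.47% of all genes rose and 9.27% fell, with medians of 0.26 and 0.30 over all members of each subunit. Rps12 rose by 0.66, Rpl12 by 0.57, Rpl41 by 0.45, Rpl5 by 0.44, Rps25 by 0.42 and Rps16 by 0.41, while Rps2 rose by 0.14, Rpl4 and Rpl29 by 0.17 and Rplp0 by 0.18, all on the log2 scale. Rps12 had 19703, 14996, 13812 and 17130 in CT40 libraries, against 14805, 7644, 6893 and 14248 in CT36 libraries, so the groups overlapped. Only 15 large and 8 small subunit members had every CT40 library above every CT36 library, which held for 9.41% of all genes. Without CT36 libraries 2 and 3 the rise was called for 3 large and 1 small subunit member, with medians of 0.15 and 0.14. Most of these calls therefore rested on that pair of libraries. Leaving out CT36 library 2 alone gave 15 and 9.

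At CT48 against CT36, 2 large subunit members fell, Rpl7l1 by 0.22 and Rpl23a by 0.17 on the log2 scale, and no small subunit member was called by limma, where 7.17% of all genes fell and 6.74% rose. The medians were -0.12 and -0.15. Without CT36 libraries 2 and 3 the counts were 27 and 20, with medians of -0.25 and -0.31, and Rpl23a then had an adjusted p of 0.0591. Rpl7l1 had 3696, 4237, 4199 and 4405 in CT48 libraries, against 4877, 4603, 4825 and 4951 in CT36 libraries, with no overlap.

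Over the whole later period, at CT48 against CT28, 46 large and 31 small subunit members fell and none rose, where 53.9% of all genes were called, 28.1% lower and 25.7% higher. The median log2 difference was -0.59 for large subunit members, a fold of 0.663, and -0.71 for small subunit members, a fold of 0.613. The same numbers of genes had every CT48 library below every CT28 library, against 25.7% of all genes. These log2 differences and this separation involve no CT36 library. The SE, p-values and calls rest on the spread within all time points of CT28 to CT48, CT36 included. Rpl41 had 22696, 26118, 23165 and 28478 in CT48 libraries, against 56116, 51406, 46672 and 46209 in CT28 libraries. All CT48 values were far below, by -0.998 ± 0.118 on the log2 scale (SE; adjusted p 3.7e-07, limma). Rpl22l1 had 2799, 2766, 2550 and 3581 in CT48 libraries, against 6687, 6331, 5912 and 5049 in CT28 libraries, a log2 difference of -1.04 ± 0.12 (SE; adjusted p 4.22e-07, limma). Rplp0 had 60209, 63918, 62285 and 67352 in CT48 libraries, against 96728, 97469, 89065 and 89061 in CT28 libraries. Its difference of -0.55 was smaller, with the groups well apart.

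Rps12 had 9653, 9359, 9329 and 13448 in CT48 libraries, against 22031, 21234, 17272 and 17258 in CT28 libraries, a log2 difference of -0.91. CT48 library 4 stood above the other 3 in Rps12, Rpl12 and Rpl9, and still below CT28 in Rps12. Rpl13a fell by 0.92 and Rps24 and Rps21 by 0.83 each. The smallest drops among those called were again in genes such as Rpl29, Rpl23, Rps4x, Rps2 and Rps28, with -0.22, -0.24, -0.37, -0.38 and -0.42. The direction of Rpl23 was turned by quantile scaling (0.026), and that of Rpl23 and Rpl29 by length scaling (0.067 and 0.20). Rpl34 fell by 0.91 (adjusted p 0.0276, limma), whereas Rpl26, Rpl30 and Rps27 had log2 differences of -0.19, -0.50 and -0.42 that did not pass. Rpl15, the large subunit member with the smallest p in the F test, had 15792, 17051, 16124 and 17496 in CT48 libraries, against 26172, 25567, 24299 and 24099 in CT28 libraries. Its libraries were tight at both ends. The size of a member's difference at CT36 against CT32 went with that at CT48 against CT28, with r = 0.89 and rho = 0.88 over the 76 members with means of at least 1000, which share the same libraries' normalisation.

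Transcript length moved with these results and has to be read beside them. The members' median transcript length is 705 bases. Among other genes with transcripts under 1000 bases, 1017 in number, the median log2 difference at CT36 against CT32 was -0.27 and 42.4% fell. It was -0.10 between 1000 and 2000 bases, -0.0012 between 2000 and 4000 and 0.073 above 4000 bases. At CT48 against CT28 the same 4 classes had medians of -0.38, -0.15, -0.004 and 0.14, and 55% of the short ones fell. In the single CT36 libraries the median of the short other genes, each gene set to its own mean, was 0.0085, -0.18, -0.12 and -0.025, and that of the large subunit members was -0.07, -0.38, -0.27 and -0.07. The lower pair of CT36 libraries was thus low in short transcripts of other genes too. The labels give no RNA quality values, and the part of RNA quality or library preparation in these results was not tested.

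After each library's values were set against those of other genes of like transcript length, an alternative chosen after seeing the data, the members' differences were smaller. At CT36 against CT32, 38 large and 29 small subunit members fell, with medians of -0.23 and -0.31. At CT48 against CT28, 37 large and 27 small subunit members fell, with medians of -0.25 and -0.31, and Rpl29 was higher, by 0.20. At CT40 against CT36, 36 large and 26 small subunit members rose, with medians of 0.18 and 0.22. Among the 76 members themselves, the log2 difference at CT36 against CT32 had r = 0.21 with transcript length, 0.30 with coding length, 0.25 with the mean value and 0.06 with the number of pseudogene copies. Members with and without a pyrimidine run near the start had medians of -0.56 and -0.51 at CT36 against CT32, in 31 and 26 genes with a promoter window and a mean of at least 1000. Those with and without CCGGAAG had -0.52 and -0.55, in 23 and 34 genes.

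**Figure D4:**
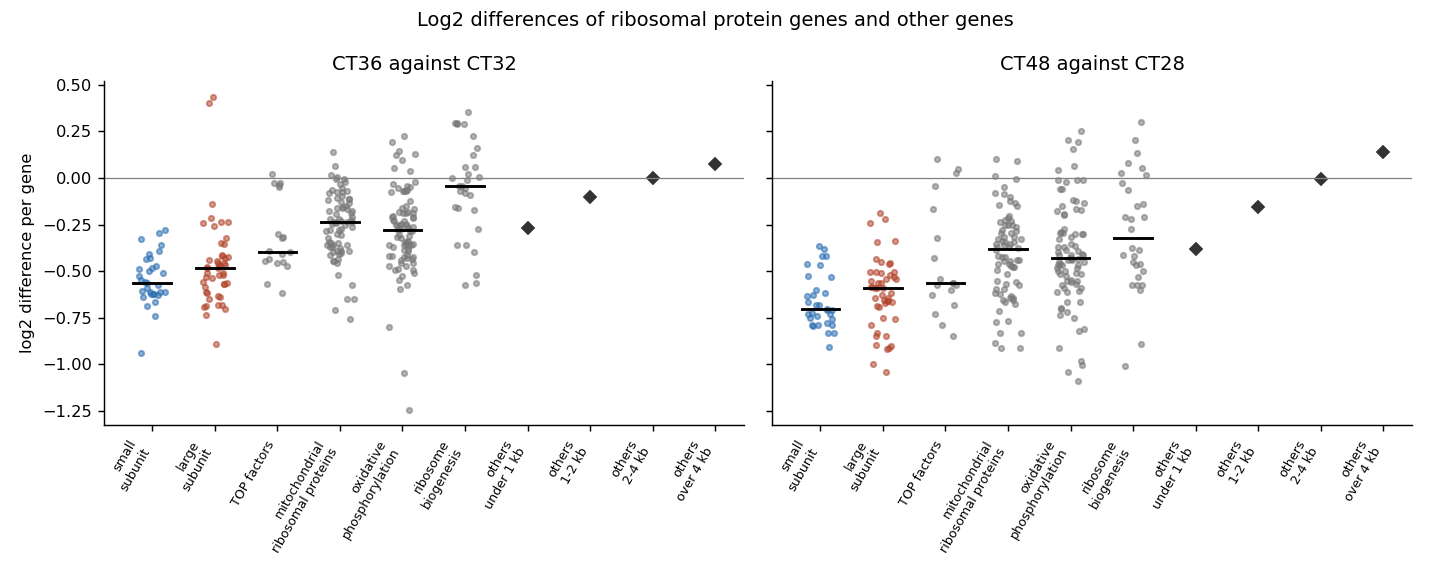
Log2 differences per gene at CT36 against CT32 (left) and CT48 against CT28 (right). Points are genes of each list with the median as a bar, and diamonds are the medians of all other genes by transcript length. Of the 6 lists drawn, both subunits have the lowest medians, -0.56 and -0.48 on the left, and the diamonds run from -0.27 for the shortest to 0.073 for the longest transcripts.

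Other genes of the translation apparatus were read from lists in the same way. Ribosomal protein genes outside the symbol pattern fell too at CT36 against CT32: Fau, which encodes a ubiquitin-like protein fused to a small subunit protein, by 0.61, and Rpl36al by 0.49. For 18 other TOP mRNAs, most of them translation factors, the median was -0.40. In all, 12 of the 18 fell and none rose, where 19.1% of all genes fell and 15.7% rose. These included the elongation factor 1 subunits Eef1g, Eef1b2 and Eef1a1 with -0.61, -0.57 and -0.43, and Naca, of the nascent chain complex, with -0.47. Eef2, the translocase, had 0.02 and Pabpc1, the poly-A binding protein, had -0.04, and neither passed. At CT48 against CT28, 14 of the 18 fell, where 28.1% of all genes fell, with Hnrnpa1 at -0.85 and Eef1g at -0.79.

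Ribosome biogenesis genes, which make and process ribosomal RNA, were mixed. At CT36 against CT32, 7 of 30 fell and 4 rose, near the 19.1% and 15.7% of all genes. The median was -0.04. Among other genes, 42.4% of those with transcripts under 1000 bases fell and 24.5% of those above 4000 bases rose. The list was not matched for transcript length. Npm3 had -0.58, Polr1c, a subunit shared by RNA polymerases I and III, had -0.56 and Nop10 had -0.52. The RNA helicase Ddx21 rose by 0.35, the polymerase I subunit Polr1a by 0.30, and Ncl and the polymerase I factor Ubtf by 0.29 each. By CT48 against CT28, 18 of 30 had fallen and 2 had risen, where 28.1% of all genes fell and 25.7% rose. The median was -0.32. Dkc1 and Nop56 joined the lower genes with -0.60 and -0.58, while Ncl stayed higher by 0.30 and Ubtf by 0.20.

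Among 16 genes of mTORC1 and its control of TOP mRNAs, 7 rose and 3 fell at CT36 against CT32, where 15.7% of all genes rose and 19.1% fell. Mtor, the kinase, rose by 0.69, the cap-complex scaffold Eif4g1 by 0.44, the cap-binding inhibitor Eif4ebp2 by 0.39 and Larp1 by 0.30. Ddit4, an inhibitor of mTORC1, fell by 0.65, its activator Rheb by 0.22 and the cap-binding Eif4e by 0.21. At CT48 against CT28, 7 rose and 3 fell, where 25.7% of all genes rose and 28.1% fell, with Mtor at 0.64 and Eif4e at -0.53. Above 4000 bases, 40.3% of other genes rose and 15.1% fell in that comparison. Of 9 genes of the Myc network, 3 rose and 2 fell at CT36 against CT32, and 6 rose and 3 fell at CT48 against CT28. Mycn rose by 0.25 at CT36 against CT32, Mnt, an antagonist of Myc, rose by 0.34 and Mxd3 fell by 0.57. Of 10 genes of the 5S RNP and p53 response other than ribosomal proteins, 1 rose and 2 fell at CT36 against CT32, beside the 15.7% and 19.1% of all genes. Mdm2 had -0.28 and Sesn2 0.38, and Cdkn1a, the p53 target that stops the cell cycle, had -0.05, which did not pass. At CT48 against CT28 Cdkn1a rose by 0.42.

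Lists taken by symbol, chosen after values were seen, also held genes that fell. Of 76 mitochondrial ribosomal protein genes, 44 fell and none rose at CT36 against CT32, where 19.1% of all genes fell, with a median of -0.24 and Mrpl53 and Mrpl14 lowest at -0.76 and -0.71. Of 86 genes for subunits or assembly factors of oxidative phosphorylation, 62 fell and 3 rose, with a median of -0.28. Cox4i2 and Ndufa4l2 were lowest, with -1.24 and -1.05, while Sdha rose by 0.23. Other genes with transcripts under 1000 bases had a median of -0.27, with 42.4% lower, in the same comparison. No test was made of the members against these lists.

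**Figure D5:**
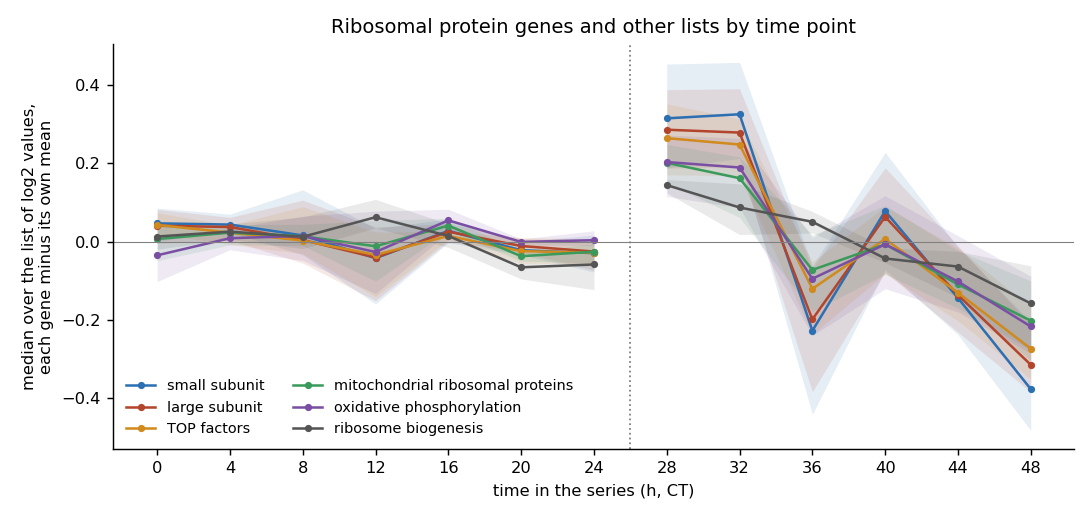
Median over each list of log2 values, each gene minus its own mean, against time in hours. Lines join time-point means and bands span the lowest to highest library. Of the 6 lists drawn, both subunits swing furthest, from the highest lines at CT28 and CT32 to the lowest at CT48, and ribosome biogenesis genes show no dip at CT36.

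Some marker lists moved over the same hours. Beside the counts that follow, 19.1% of all genes fell and 15.7% rose at CT36 against CT32. Of 12 cell cycle genes, 10 fell and none rose at CT36 against CT32, with Birc5 at -0.88 and Mki67 at -0.33. Their summed value was 57780 to 60923 in CT36 libraries, against 70822 to 79571 in CT32 libraries, and 51407 to 59976 in CT48 libraries, against 78413 to 81233 in CT28 libraries. Of 15 proximal tubule genes, 5 rose and 2 fell at CT36 against CT32, with a median of 0.10. Differences ran from -0.61 to 2.56 for G6pc, with Pck1 at 1.04. Their sum was 177689 to 205176 in CT36 libraries, against 159991 to 200064 in CT32 libraries, so the groups overlapped. At CT40 against CT36, 4 of the 15 fell and none rose, where 9.27% of all genes fell. Their sum was 167937 to 214876 in CT48 libraries, against 127500 to 159416 in CT28 libraries. In that comparison 10 rose and none fell, where 25.7% of all genes rose. Of 8 nephron progenitor genes, 3 fell at CT36 against CT32, Crym, Cited1 and Six2, with -0.46, -0.36 and -0.22, and the sum was 13941 to 15395 in CT48 libraries, against 15852 to 17594 in CT28 libraries. Sums of erythroid markers were 1305 to 1438 in CT36 libraries, against 1011 to 1334 in CT32 libraries, those of lymphoid and myeloid markers 5152 to 6408 at CT36, against 4663 to 5235 at CT32, and those of liver markers 10310 to 11829 at CT36, against 8708 to 11214 at CT32. Of these lists 1 of 7 erythroid, 2 of 8 lymphoid and myeloid and 3 of 10 liver genes rose at CT36 against CT32, and 2 liver genes fell, where 15.7% of all genes rose and 19.1% fell. None of 9 skeletal muscle and 4 adrenal genes tested was called by limma, and of these only Ryr1, a muscle calcium channel, had an unadjusted p below 0.05, at 0.027. In addition, 0 markers were at 0 in every library. The part of a changing cell makeup in the members' fall was not tested.

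In the earlier period the members changed little. At CT12 against CT0, 10 large and 10 small subunit members fell and none rose, where 9.96% of all genes fell and 8.6% rose, with medians of -0.08 and -0.09, or folds of 0.947 and 0.939. Rps16 had 18019, 16853, 16434 and 15642 in CT12 libraries, against 19440, 19202, 19080 and 19269 in CT0 libraries. All CT12 values were lower, by -0.20 ± 0.04 on the log2 scale (SE; adjusted p 0.000763, limma). Rpl41 also fell by 0.20, Rpl10a and Rps28 by 0.17 and Rps18 and Rpl37a by 0.15. CT12 library 4 was the lowest CT12 library in 67 of the 80 members, and without it 4 large and 3 small subunit members were called lower. At CT24 against CT0, 1 embryonic day apart at the same clock time, 4 large and 5 small subunit members fell, where 12.2% of all genes fell, with medians of -0.06 and -0.07. Among them were Rpl31, Rpl5, Rplp1, Rpl15, Rps26, Rps28, Rpsa and Rps16, between -0.14 and -0.10 on the log2 scale. Without CT24 library 2 no member was called lower.

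Rpl7l1 had the clearest course of its own in the earlier period, with the smallest p of all members in the F test (range of means 0.20, adjusted p 0.000966, limma). Its values were 5457, 5454, 5162 and 4911 at CT12 and 4878, 4443, 4773 and 4728 at CT24, against 4988, 5044, 5039 and 4812 at CT0. Its time-point mean was highest at CT12 and lowest at CT20, at 4565 ± 143 (SD, n = 3). The CT12 and CT0 libraries overlapped, and Rpl7l1 was not called at CT12 against CT0. Rps16 and most members had lower means at CT12 than at CT0.

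A 24 h rhythm, fitted over all 51 libraries with a line in time and a step at the boundary, was called in 2 large subunit members and no small one, where 12.3% of all genes were called. At an unadjusted p under 0.05 the count was also 2. The fitted Rpl30 amplitude was 0.38 ± 0.12 on the log2 scale, peaking at 15.3 h (SE; adjusted p 0.0482, limma), on values that lay mostly near 100. That of Rpl7l1 was 0.08 ± 0.02, peaking at 9.55 h (SE; adjusted p 0.05, limma), just under the threshold. Neither was called when any replicate number was left out. Calls over all genes then dropped from 1773 to between 224 and 724. The authors' deposited table, which scored rhythms with periods of 20 to 28 h, gives a combined q-value under 0.05 for 36 large (75%) and 25 small (78.1%) subunit members, against 41.3% of all genes of the authors' deposited table. Of these 61 members, 58 have a period of 28 h, the longest in the authors' deposited table, as do 39.0% of all genes with such a q-value. The separate q-values headed JTK and LS differed. The JTK q-value was under 0.05 for 38 large and 27 small subunit members, against 44.6% of all genes. The LS q-value was under 0.05 for 1 large and 0 small subunit members, against 14.2% of all genes. In the authors' deposited table Rpl7l1 has the lowest combined q-value of the members, 2.81e-06, with a period of 24.4 h and a phase of 8.37 h, and Rpl30 has a q-value of 0.4998.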

How the data were processed

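Per the submitters' processing notes, reads were handled with bcl2fastq, STAR 2.5.2b and featureCounts 1.5.0-p3 against mm10. Annotation, strand setting and normalisation: not given in the sources used here. Per the labels' protocols, RNA was kept in RNAlater, isolated on a QIASymphony, enriched by poly-A pull-down and prepared with an Illumina TruSeq kit. The deposited expression table holds whole numbers that the authors had already normalised, since library totals are nearly equal and gene means match between CT0 to CT24 and CT28 to CT48, so each value was treated as a score and not as a count. The authors' deposited second table gives p-values, q-values, periods and phases of rhythm tests and was used for description only.

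Values were analysed as log2(value + 1) of the deposited values with limma 3.58.1 in R 4.3.3, with trend and robust moderation, over 14426 genes with a mean of at least 10. Each period had its own fit, with Benjamini-Hochberg adjustment over all genes and a threshold of 0.05. A log2 difference on this scale understates the change of low genes. Lengths and copies came from GENCODE M21 on GRCm38 and BLAST 2.17.0+, and sequences from RefSeq GRCm38.p6. Named members are those with the highest and lowest differences per subunit and comparison, the smallest p per F test, extremes of level and coherence, paralogs, the P proteins and Rpsa, with Rps6, Rpl11, Rps18, Rpl21 and Rpl32 added for their role or values. The members, lists and comparisons were chosen with earlier results of these data known, and the CT40 and CT28 comparisons after values were seen. The fits were checked on simulated data. Alternatives were factors from trimmed means of M values (TMM), quantile scaling, totals without the members, a pseudocount of 16, no filter, a replicate block, left-out libraries and length scaling. Some genes that this rule names are not reported here.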

Additional observations from a re-analysis of the deposited data

Results flagged for a closer look

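Single libraries that stood far from the other 3 of their time point were sought in 119 groups, made of 19 members at 5 time points and 24 subunit shares, and 8 groups held such a library, where chance alone marks about 1 in 20 groups. At CT48, library 4 was the highest by far in 3 members, with 13448 for Rps12, 12060 for Rpl12 and 24080 for Rpl9. At CT32, library 3 was the highest for Rpl12 with 17753, and library 2 was the lowest for Rpl7l1 with 5290. At CT40, library 3 was the lowest for Rpl23 with 30301 and the highest for Rpl30 with 207, and library 2 was the lowest for Rpl26 with 14. The pairs of CT36 libraries do not meet this measure, since neither library of a pair stands alone.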

How the results depend on the processing

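Over the settings tried, 38 to 45 large and 26 to 31 small subunit members were lower at CT36 against CT32, and 37 to 47 and 27 to 31 at CT48 against CT28. Length scaling moved the large and small subunit medians to -0.23 and -0.31, against -0.48 and -0.56, at CT36 against CT32, and to -0.25 and -0.31, against -0.59 and -0.71, at CT48 against CT28. Median log2 values of all genes shifted by -0.05 to 0.02 between scalings. The other counts, for large and then small subunit members, depended on settings, and the causes were not tested. Quantile scaling gave 10 large members among CT0 to CT24, 1 in the rhythm test, and 9 and 8 at CT24 against CT0. It turned Rps27l at CT12 against CT0 to -0.012, Rpl23 at CT36 against CT32 to 0.044 and Rpl23 at CT48 against CT28 to 0.026. Without CT12 library 4 and CT36 library 3 there were 3 large members among CT0 to CT24, 1 in the rhythm test, 7 and 8 at CT24 against CT0, 4 lower with 1 higher and 3 lower at CT12 against CT0, 1 large at CT48 against CT36, and 20 and 14 at CT40 against CT36; at CT12 against CT0 Rpl22l1 became 0.017 and Rplp2 0.031. Length scaling gave 2 large members among CT0 to CT24, 1 small one in the rhythm test, 8 and 8 at CT24 against CT0, 3 lower with 1 higher and 6 lower at CT12 against CT0, 1 large at CT48 against CT36 and 1 large higher at CT48 against CT28. It turned Rplp2 at CT12 against CT0 to 0.0022, Rpl29 at CT36 against CT32 to 0.077, Rplp1 and Rplp2 at CT48 against CT36 to 0.041 and 0.0052, Rpl7l1 at CT40 against CT36 to -0.016, and Rpl29 and Rpl23 at CT48 against CT28 to 0.20 and 0.067. With all 51 libraries in the fit there were 1 and 0 among CT0 to CT24, 0 and 1 at CT24 against CT0, 0 and 0 at CT12 against CT0, 11 and 5 at CT48 against CT36, and 1 large lower at CT40 against CT36. Totals without the members gave 1 in the rhythm test, 10 and 9 at CT24 against CT0, 16 large at CT12 against CT0 and -0.011 for Rps27l there; TMM gave 5 large at CT12 against CT0. The rhythm test called 0 large members with a pseudocount of 16, no filter, the replicate block or 13 time-point means, and 1 with weights per period. Libraries of the same replicate number had mean correlations of deviations of 0.03 and 0.01 within the earlier and later period. Of these pairs, 25 of 78 and 4 of 60 exceeded 0.1. Replicate numbers depart from the order of the library identifiers at CT12 and CT20, so this check could not settle whether libraries are paired. With the number as a replicate block, 8 small members were lower at CT24 against CT0. Without CT36 libraries 2 and 3, counts were 27 and 20 at CT48 against CT36, and 3 and 1 at CT40 against CT36. Leaving out 1 library or replicate number gave 0 to 9 and 0 to 8 members among CT0 to CT24, 0 to 0 in the rhythm test, 0 to 5 and 0 to 5 at CT24 against CT0, 3 to 13 and 3 to 11 at CT12 against CT0 (with 0 to 1 higher), 1 to 4 and 0 to 6 at CT48 against CT36, and 15 to 43 and 9 to 29 at CT40 against CT36. At CT12 against CT0 it moved Rps27l between -0.044 and 0.051, Rplp2 between -0.088 and 0.031 and Rpl22l1 between -0.11 and 0.017. With a replicate number left out, calls over all genes among CT0 to CT24 were 2397 to 5479, against 6277. In the rhythm test they were 224 to 724, against 1773. Depth is unknown, so no counting error can be given, and 4 libraries a time point limit the precision.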
